A study of Mus musculus with 9 samples.

Results

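The CLIC family genes are the genes of the chloride intracellular channel proteins, and 4 of the 14351 genes in the deposited expression table belong to this family: *Clic1*, *Clic4*, *Clic5* and *Clic6*. They were chosen by gene symbol and not by their values. RNA of the hypothalamus of male mice was sequenced in 5 libraries of Clic1 knockout (KO) mice, numbered 2, 4, 6, 8 and 10, and 4 of WT mice, numbered 1, 3, 9 and 11. KO mice lacked Clic1 in the whole body, and for the KO line and its WT littermates the study's methods give normal chow. The strain label reads C57b/6J and a protocol label names perigonadal adipose tissue, against a CD-1 background and hypothalamus in the methods. The age of these mice is not given in the sources used here.

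The label fields of replicate 10 disagree. Its description and its column name begin with K, as in the KO libraries, and its title and treatment say WT. It counts as KO here by the former, and results that turned on it are also given without it. The reads assigned to genes were estimated from the steps between the lowest values at 5.47 to 20.8 M per KO library and 7.29 to 10.98 M per WT library, and KO replicate 10 held the most. All 11 listed markers of the hypothalamus were measured, with a summed level of 643 to 826 CPM (reads of a gene relative to library size, as normalized by the authors) across KO and 582 to 632 CPM across WT libraries. Much of the difference between these sums came from 1 gene, *Avp*, at a mean of 207 CPM in KO and 111 CPM in WT libraries.

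CLIC proteins are relatives of the glutathione S-transferases. They exist as soluble proteins in the cytoplasm and can also insert into membranes, where they form chloride-conducting channels, and the soluble form carries a glutaredoxin-like site with oxidoreductase activity. Clic1 is found in microglia and endothelium among many other cells. Clic4 is a widely expressed member that moves to the nucleus under stress and takes part in tube formation by endothelial cells. Clic5 binds the ezrin, radixin and moesin linkers of actin to membrane and is needed in the stereocilia of inner ear hair cells, and Clic6 has a long extension before the conserved part and binds D2-like dopamine receptors.

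The 4 transcripts are related in sequence but can be told apart by short reads. *Clic1* codes for 241 amino acids in the longest coding transcript of GENCODE M21, *Clic4* for 253, *Clic5* for 251 and *Clic6* for 596. Over the alignable coding bases *Clic1* was 66.5% identical to *Clic4*, 65.2% to *Clic5* and 63.6% to *Clic6*. *Clic4* and *Clic5* were the most alike pair, at 71.9%. The 90 coding bases in which the other members came closest to *Clic1* are printed because they show how far apart the genes are where they are most alike. They cover coding positions 28 to 117 of *Clic1*, counted from the A of the start codon, span the end of exon 1 (chromosome 17, 35050475 to 35050486 of GRCm38, plus strand) and part of exon 2 (35052435 to 35052512), and include the codon of the redox-active cysteine of the glutaredoxin-like site. Each is written 5′ to 3′, and capitals mark bases that differ from *Clic1*.
Clic1: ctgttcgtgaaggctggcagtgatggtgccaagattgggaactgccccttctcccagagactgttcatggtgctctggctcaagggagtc
Clic4: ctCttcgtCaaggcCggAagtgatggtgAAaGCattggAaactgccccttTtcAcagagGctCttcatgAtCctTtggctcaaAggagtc
Clic5: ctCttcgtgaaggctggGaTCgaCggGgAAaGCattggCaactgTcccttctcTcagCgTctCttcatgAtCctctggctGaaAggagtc
Clic6: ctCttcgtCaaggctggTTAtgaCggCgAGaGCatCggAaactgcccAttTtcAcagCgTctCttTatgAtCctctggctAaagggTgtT
Even in this window *Clic4* differed from *Clic1* at 17 of 90 bases, *Clic5* at 20 and *Clic6* at 25. The longest run of identical bases between whole transcripts was 16 for *Clic1* with *Clic4* and 14 for *Clic1* with *Clic5* or *Clic6*.

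Reads that match several genes are divided between them by the authors' estimation, which leaves fractions of reads. No stretch of 25 bases of the *Clic1* transcript, of 1442 such stretches, occurred in an annotated transcript of another gene in either orientation, and the same held for *Clic6* over 3734 stretches. *Clic4* shared 5.84% of its 25-base stretches with 1 gene, the processed pseudogene *Gm8388*, which was not analysed here, and *Clic5* shared 0.634%, in stretches found in many genes. No exon of the 4 genes overlapped an exon of another annotated gene. In all 9 libraries the values of the 4 genes came to whole reads (to within 0.03), as did those of 71.1% of all genes. Read numbers could therefore be given for each member, where a read stands for a read or read pair.

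*Clic1*, the gene deleted in the KO mice, fell to 28.0% of its WT level, and signal remained in every KO library. In GRCm38 *Clic1* (ENSMUSG00000007041) spans chromosome 17 from 35049966 to 35058749, plus strand. Its level was 1.93, 1.32, 0.733, 1.25 and 1.43 CPM in KO replicates 2, 4, 6, 8 and 10. In WT replicates 1, 3, 9 and 11 it was 5.52, 4.66, 5.30 and 3.58 CPM. The groups did not overlap, and replicate 10 lay among the other KO libraries. The log2 fold change was -1.80 (standard error 0.27, 95% interval -2.38 to -1.22) with an adjusted p of 0.0153 in limma with Benjamini-Hochberg adjustment over all genes. The two-sided exact permutation test gave p = 0.0159, the smallest that 5 against 4 libraries allow. The call was lost without WT replicate 1, 3 or 9 (adjusted p of 0.0893, 0.0826 and 0.0702 in limma) and with replicate 10 counted as WT (log2 fold change -1.51, adjusted p = 0.501), and kept without KO replicate 10 (log2 fold change -1.84, adjusted p = 0.00494).

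These levels rest on few reads. KO replicates 2, 4, 6, 8 and 10 held 15, 10, 4, 8 and 29 *Clic1* reads, 66 in all, and WT replicates 1, 3, 9 and 11 held 61, 45, 53 and 26, 185 in all. KO replicate 10, the most deeply sequenced library, gave the most precise KO value, with an exact Poisson 95% interval of 0.961 to 2.06 CPM. KO replicate 6 held the fewest reads, and its 4 reads allow 0.200 to 1.88 CPM, the widest interval of a KO library relative to its own level. The interval of the highest KO library, replicate 2, reached 3.19 CPM and crossed that of the lowest WT library, replicate 11, which began at 2.34 CPM, so these 2 libraries are not separated by counting error alone. Such intervals cover counting error only.

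Relative to the WT mean, the *Clic1* signal left in KO replicates 2, 4, 6, 8 and 10 was 40.5%, 27.7%, 15.4%, 26.3% and 30.1%, a mean of 28.0% ± 9.003 (SD, n = 5). Omitting single libraries moved this mean to between 24.8% and 31.1%. Which part of the gene was deleted is not given in the sources used here, and gene-level values do not show on which exons the remaining reads fell. The share of these reads that came from the deleted locus was not tested. *Clic1* reached 1 CPM in 8 of 9 libraries, 4 of them KO, so its place in the table after the authors' filter did not rest on WT libraries alone.

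**Figure D1:**
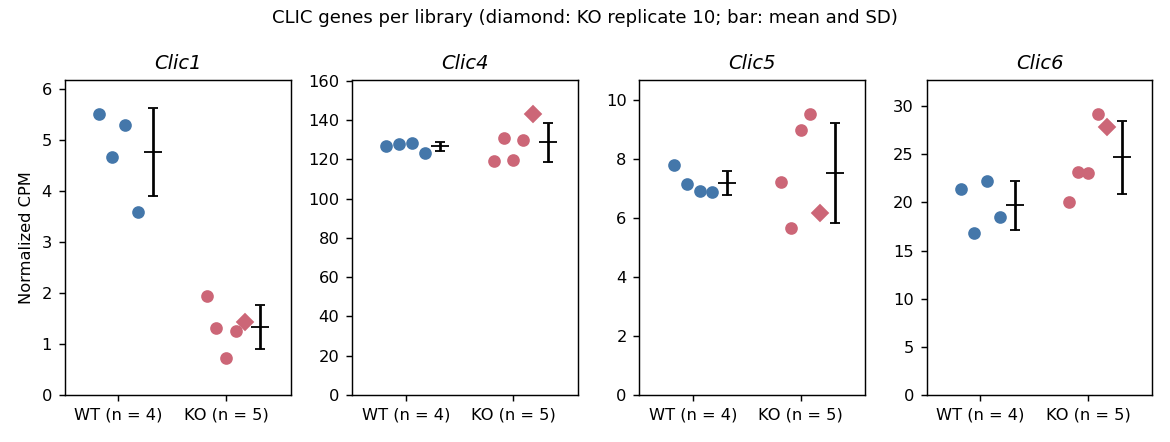
Normalized CPM of the 4 CLIC genes in each library (y axis from 0, WT in blue, KO in red, KO replicate 10 as a diamond, bars for mean and SD, n = 4 and n = 5). For *Clic1* all KO libraries lie at or below 1.93 CPM and all WT libraries at or above 3.58 CPM, whereas the groups overlap for *Clic4*, *Clic5* and *Clic6*.

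Of the 4 genes, *Clic1* alone passed the threshold of 0.05 on the adjusted p of limma, and it alone had groups that did not overlap. Across all 14351 genes 0.286% passed the same threshold and 3.41% had groups without overlap. Since *Clic1* is the targeted gene, its call is a check of the labels, and the question about the other 3 members was whether their RNA was higher where *Clic1* was low.

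*Clic4*, the most abundant member, did not differ between the groups beyond their spread. *Clic4* (ENSMUSG00000037242) spans chromosome 4 from 135213969 to 135272814, minus strand. It was measured at 119, 131, 120, 130 and 143 CPM in KO replicates 2, 4, 6, 8 and 10, and at 127, 128, 128 and 123 CPM in WT replicates 1, 3, 9 and 11. WT libraries lay close together, with a coefficient of variation of 1.87%, against 7.70% in KO libraries, and the 5 KO libraries fell on both sides of the WT range. KO libraries averaged 129 ± 9.91 CPM (SD, n = 5) against 127 ± 2.37 CPM (SD, n = 4) in WT libraries. The log2 fold change was 0.02 with a 95% interval of -0.13 to 0.16 (adjusted p = 0.970 in limma), which bounds the change at -8.39% to 12.1% of the WT level. KO replicate 10 had the highest value, and without it the log2 fold change was -0.02 (95% interval -0.13 to 0.09, adjusted p = 0.933 in limma).

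*Clic5* had the same mean in both groups within error, and its values lay further apart in the KO libraries. *Clic5* (ENSMUSG00000023959) spans chromosome 17 from 44188584 to 44280172 on the plus strand, 9.13 Mb from *Clic1*. Its level was 7.21, 5.67, 8.97, 9.54 and 6.18 CPM in KO replicates 2, 4, 6, 8 and 10, and 7.78, 7.15, 6.90 and 6.89 CPM in WT replicates 1, 3, 9 and 11. KO replicates 6 and 8 were above and replicates 4 and 10 below every WT library. These values came from 43 to 125 reads per library. The exact Poisson 95% intervals of KO replicates 4, 6, 8 and 10 each reached into the WT range. They were 4.10 to 7.63, 6.64 to 11.9, 7.30 to 12.3 and 5.15 to 7.37 CPM. KO libraries averaged 7.51 ± 1.70 CPM (SD, n = 5) against 7.18 ± 0.417 CPM (SD, n = 4) in WT libraries, with a log2 fold change of 0.04. The 95% interval of -0.33 to 0.40 (adjusted p = 0.977 in limma) bounds the change at -20.3% to 32.3% of the WT level, and the spread between the groups was not tested for a difference.

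*Clic6* was the member with the largest difference apart from *Clic1*, and it did not pass the threshold. *Clic6* (ENSMUSG00000022949) spans chromosome 16 from 92485736 to 92541243, plus strand. Its level was 20.1, 23.2, 23.1, 29.2 and 27.8 CPM in KO replicates 2, 4, 6, 8 and 10, and 21.4, 16.8, 22.2 and 18.5 CPM in WT replicates 1, 3, 9 and 11. In 4 of 5 KO libraries it lay above every WT library, and KO replicate 2 lay among the WT libraries. KO libraries averaged 24.7 ± 3.76 CPM (SD, n = 5) against 19.7 ± 2.54 CPM (SD, n = 4) in WT libraries. On the log2 scale the fold change was 0.32 (standard error 0.13, 95% interval 0.04 to 0.60), with an unadjusted p of 0.0296 and an adjusted p of 0.714 in limma. The exact permutation test gave p = 0.0794. Leaving out KO replicate 2, the KO library inside the WT range, removed the overlap by construction (exact permutation test, p = 0.0286). The other 8 omissions kept it, with p between 0.0714 and 0.179 in the same exact test and 0.143 without KO replicate 10. In limma the adjusted p of *Clic6* was between 0.365 and 0.992 under all alternatives, so no setting tried gave a call.

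**Figure D2:**
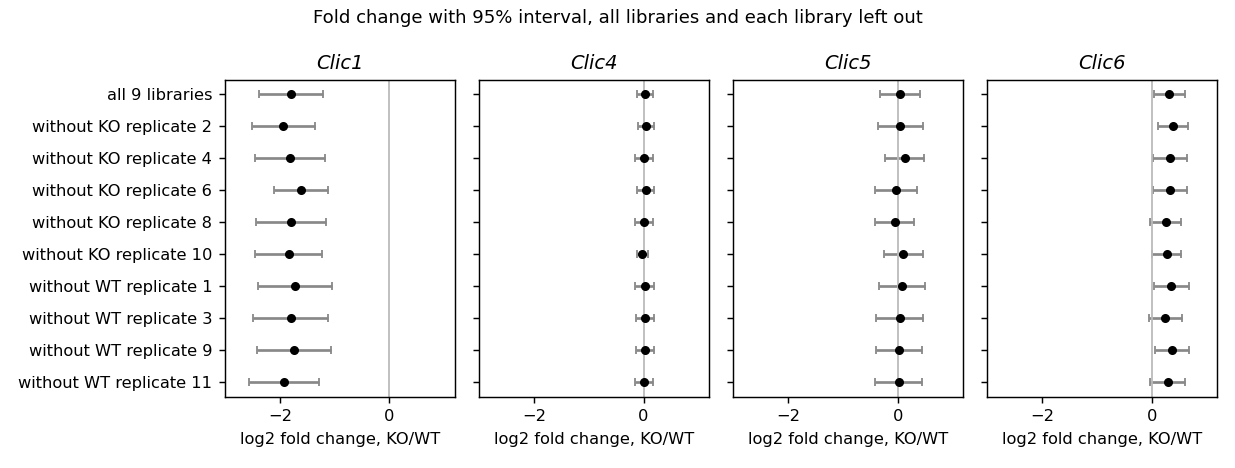
Log2 fold change of KO over WT (x axis) with its 95% interval from limma for each CLIC gene, with all 9 libraries and with each library left out (rows). *Clic1* stays between -1.94 and -1.62 and *Clic6* between 0.24 and 0.39, and the estimates of *Clic4* and *Clic5* cross 0 as libraries are left out.

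To compare the genes with each other, levels were divided by the length of the longest coding transcript. In WT mice the order per kb was *Clic4* at 30.8 ± 0.575 CPM per kb, *Clic6* at 5.25 ± 0.675, *Clic1* at 3.25 ± 0.592 and *Clic5* at 1.22 ± 0.0712 (SD, n = 4), and the WT ranges of neighbours in this order did not overlap. The WT level of *Clic4* was higher than that of 85.1% of 14295 genes with a length, that of *Clic6* than 34.1%, that of *Clic1* than 24.3% and that of *Clic5* than 10.7%. In KO mice the levels were 31.2 ± 2.41, 6.57 ± 1.002, 0.910 ± 0.293 and 1.28 ± 0.289 CPM per kb (SD, n = 5) for *Clic4*, *Clic6*, *Clic1* and *Clic5*. *Clic1* was above *Clic5* in 4 of 4 WT libraries and below it in 4 of 5 KO libraries, and its KO range of 0.4997 to 1.32 CPM per kb overlapped the 0.967 to 1.63 CPM per kb of *Clic5*. Transcript usage was not measured, so these lengths are an approximation. With the mean length of a gene's coding transcripts, chosen after the data were seen, *Clic6* was at 9.54 CPM per kb in WT and 11.9 in KO mice, and the other 3 genes kept their values, so the order was the same.

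**Figure D3:**
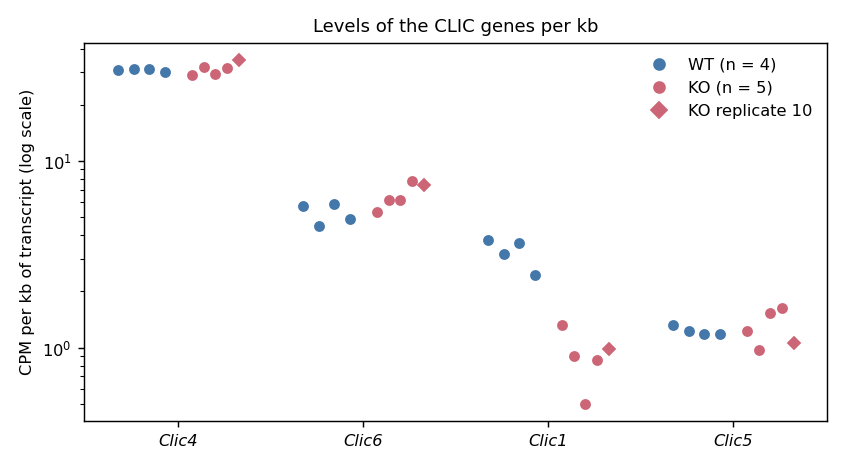
Level of each CLIC gene in each library in CPM per kb of the longest coding transcript (log y axis, WT in blue, KO in red, KO replicate 10 as a diamond). *Clic4* lies near 31 in both groups, *Clic6* between 4.47 and 7.78, and *Clic1* drops from 2.44 to 3.76 in WT to 0.4997 to 1.32 in KO mice, where it meets *Clic5*.

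*Clic1* made up 7.996% ± 1.18 (SD, n = 4) of the family's CPM per kb in WT and 2.29% ± 0.810 (SD, n = 5) in KO mice (exact permutation test, p = 0.0159). *Clic4* held 76.0% ± 2.06 (SD, n = 4) in WT and 78.1% ± 1.63 (SD, n = 5) in KO mice. *Clic6* held 12.9% ± 1.299 (SD, n = 4) in WT and 16.4% ± 1.54 (SD, n = 5) in KO mice without overlap (exact permutation test, p = 0.0159). With the mean coding transcript length *Clic6* held 21.3% in WT and 26.2% in KO mice. Shares of one total move together, so the fall of *Clic1* raises the others. The tests of the *Clic1* and *Clic6* shares therefore include the knockout itself. In CPM the *Clic6* groups overlapped (exact permutation test, p = 0.0794). Summed without *Clic1*, the family was at 161 ± 12.5 CPM in KO mice (SD, n = 5) against 154 ± 4.08 CPM in WT mice (SD, n = 4), a difference of 7.29 CPM within the spread of the KO libraries (exact permutation test, p = 0.317). Without KO replicate 10, the library with conflicting labels, the difference was 3.14 CPM (exact permutation test, p = 0.571), and without KO replicate 2 it was 10.9 CPM (p = 0.143 in the same exact test). With *Clic1* included the sums were 162 ± 12.4 and 158 ± 4.91 CPM, a difference of 3.85 CPM (exact permutation test, p = 0.635). This difference changed sign without KO replicate 10, to -0.315 CPM (exact permutation test, p = 0.914), and lay between 1.80 and 7.29 CPM when any other library was left out. Per kb, the summed level of all 4 genes differed by -0.480 CPM per kb (exact permutation test, p = 0.778).

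The size of a rise that would match the lost *Clic1* differs between the members. *Clic1* was 2.34 CPM per kb lower in KO than in WT mice, which equals 7.61% of the WT level of *Clic4*, 44.6% of that of *Clic6* and 191% of that of *Clic5*. On the log2 scale these are rises of 0.11, 0.53 and 1.54. For *Clic6* the mean coding transcript length gives 24.5% and a rise of 0.32 instead. The 95% interval of *Clic5* ended at 0.40, below the rise of 1.54. With all 9 libraries the intervals of *Clic4* and *Clic6*, which ended at 0.16 and 0.60, included theirs with either length. Without KO replicate 10 they ended at 0.0852 and 0.5297, below the rises of 0.1058 and 0.5322 computed with it. With sample weights they ended at 0.0958 and 0.4998, also below. The rise of 0.32 from the mean coding transcript length stayed inside the *Clic6* interval in both. For *Clic4*, and for *Clic6* with the longest coding transcript, the inclusion thus turned on KO replicate 10 and on the weights. RNA levels were compared here, and protein levels were not measured by these data.

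Cell type markers were set beside the family because hypothalamic samples hold many cell types, and in bulk RNA fewer cells of a type and less RNA per cell cannot be told apart. Of 91 marker genes measured, from 13 lists, 1 passed the threshold, the vasopressin gene *Avp* in the hypothalamus list, against 0.286% of all genes. The summed level of the hypothalamus list was higher in each KO than in each WT library, and it was the 1 list of 13 whose sums did not overlap. *Avp* held much of this difference, at a mean of 207 CPM in KO and 111 CPM in WT libraries, within summed means of 744 and 602 CPM. The median log2 fold change of the list was 0.02, and 6 of 11 genes were positive. Of the single marker genes 4 of 91 had groups without overlap, against 3.41% of all genes, namely *Avp*, the tanycyte marker *Rax*, the neuron marker *Slc17a6* and the pars tuberalis marker *Tshb*, and the latter 3 did not pass the threshold. Endothelial markers, 10 of 10 measured, summed to 237 to 271 CPM across KO and 222 to 242 CPM across WT libraries. Microglia and macrophage markers, 10 of 10 measured, summed to 236 to 288 CPM across KO and 258 to 339 CPM across WT libraries. Both ranges overlapped between the groups, and the KO mean was 1.117 and 0.940 times the WT mean. The part of cell types in the *Clic1* values was not tested. In the endothelial sum 4 of 5 KO libraries lay above every WT library, the exception being KO replicate 6. Of 10 choroid plexus markers, listed because the choroid plexus is known for high *Clic6*, 5 were measured (*Kl*, *Otx2*, *Kcnj13*, *Prlr* and *Sostdc1*), and *Ttr*, *Folr1*, *Kcne2*, *Slc4a5* and *Aqp1* were not analysed here. The 5 measured summed to 62.4 to 92.3 CPM across KO and 77.4 to 97.4 CPM across WT libraries. This sum was lowest in KO replicate 10, the library with the second highest *Clic6*. *Prlr* made up most of it, at a mean of 62.6 of 82.8 CPM in KO and 69.8 of 90.1 CPM in WT libraries. *Kcnj13* was the 1 marker of the 5 with a positive log2 fold change (0.40, 95% interval -0.42 to 1.23, adjusted p = 0.879 in limma). Meningeal fibroblast markers, 8 of 8 measured, ranged from 170 to 469 CPM across KO and 187 to 295 CPM across WT libraries, and mural cell markers, 7 of 7 measured, from 183 to 267 and 199 to 220 CPM. For these 2 lists the KO mean was 1.41 and 1.109 times the WT mean, and the median log2 fold change was 0.59 and 0.30. In them 6 of 8 and 6 of 7 genes were positive. An unadjusted p under 0.05 in limma was seen for 3 of 8 and 2 of 7, against 6.5% of all genes, and none passed the threshold.

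The summed markers of the other cell types overlapped between the groups as well. Ependymal markers summed to 103 to 114 CPM across KO and 97.2 to 118 CPM across WT, tanycyte markers to 108 to 153 and 118 to 136 CPM, and astrocyte markers to 4640 to 4973 and 4360 to 4851 CPM. Oligodendrocyte markers summed to 3497 to 3958 CPM across KO and 3723 to 4568 CPM across WT, and neuron markers to 2911 to 3079 and 2893 to 3367 CPM. Pars tuberalis markers, of the pituitary stalk, summed to 6.23 to 20.2 CPM across KO and 15.1 to 33.7 CPM across WT, and *Alas2*, the only blood cell marker measured of 5, was at 9.79 to 13.4 and 7.58 to 10.3 CPM. No measured marker was at 0 in every library, which the authors' filter on CPM fixed in advance. KO replicate 8, the library with the highest *Clic6*, had the highest endothelial, mural cell, meningeal fibroblast and tanycyte sums of all libraries. It was not the highest in any other list of markers, and KO replicate 10, with the second highest *Clic6*, had the lowest mural cell sum. The part of these cell types in the *Clic6* values was not tested.

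**Figure D4:**
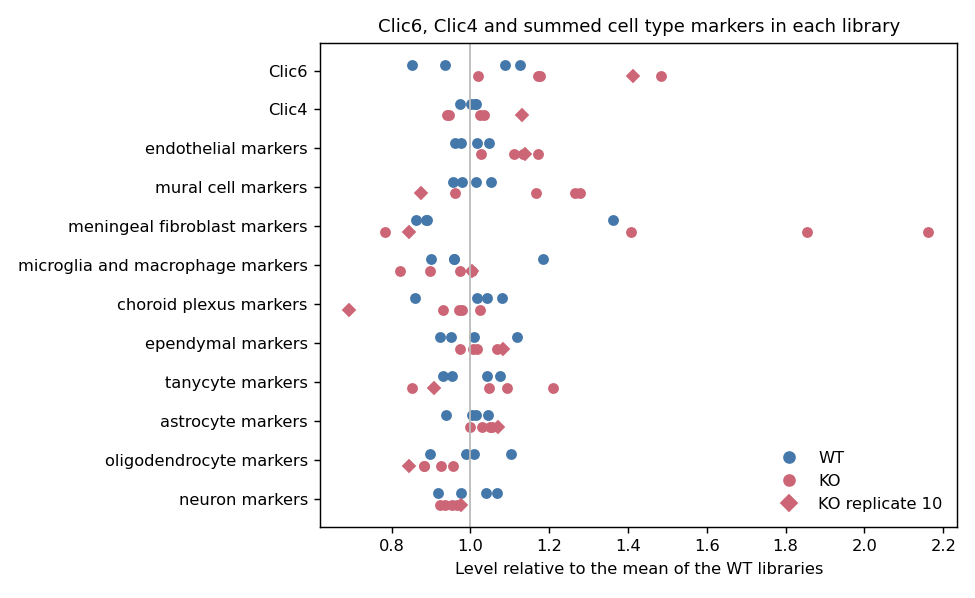
*Clic6*, *Clic4* and the summed CPM of 10 lists of cell type markers in each library, as a multiple of the WT mean (x axis, WT in blue, KO in red, KO replicate 10 as a diamond). *Clic6* reaches 29.2 CPM in KO replicate 8, and the KO and WT libraries overlap in each of the 10 lists.

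Genes of proteins known to work with CLIC proteins were followed next, among them linkers of membrane and actin (*Ezr*, *Rdx*, *Msn*), the scaffold *Akap9*, dopamine and histamine receptors and nuclear import factors. Of 24 listed genes 22 were measured, in 23 rows of the table. None passed the threshold, against 0.286% of all genes, and 1 had an unadjusted p under 0.05 in limma, against 6.5% of all genes. The median log2 fold change was 0.03, against 0.00089 over all genes, with a range of -0.57 to 0.27. The smallest p belonged to a row named *Nutf2*, after a nuclear import factor, which differed by -0.57 on the log2 scale (adjusted p = 0.714 in limma). GENCODE names this row as the pseudogene *Nutf2-ps1*, and the *Nutf2* gene itself had a log2 fold change of 0.27 (adjusted p = 0.828). Summed, both rows were at 38.7 ± 6.31 CPM in KO mice (SD, n = 5) against 39.2 ± 1.53 CPM in WT mice (SD, n = 4) (exact permutation test, p = 0.952), and the separate values are uncertain because reads can be divided between such copies. *Msn*, which encodes moesin, was next, at 51.0 ± 9.71 CPM in KO mice (SD, n = 5) against 42.6 ± 4.67 CPM in WT mice (SD, n = 4) (log2 fold change 0.25, adjusted p = 0.794 in limma). KO replicate 10 had the highest *Msn*, at 67.1 CPM.

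Relatives with the glutathione S-transferase fold included the transferases themselves, which detoxify by joining glutathione to their substrates. Of 31 listed genes 25 were measured, and none passed the threshold with all 9 libraries. The median log2 fold change was -0.04, with a range of -0.51 to 0.54, and 9 of 25 were positive. An unadjusted p under 0.05 in limma was seen for 3 of 25, against 6.5% of all genes, and all 3 were lower in KO mice. *Gstp1*, a pi-class transferase, was at 130, 187, 134, 135 and 190 CPM in KO replicates 2, 4, 6, 8 and 10 and at 244, 215, 240 and 179 CPM in WT replicates 1, 3, 9 and 11. Its groups overlapped, since KO replicates 4 and 10 lay above WT replicate 11. The difference was -0.51 on the log2 scale, with an adjusted p of 0.356 in limma. It passed the threshold without KO replicate 10, at -0.59 (adjusted p = 0.0197 in limma), and with sample weights, at -0.57 (adjusted p = 0.0150). *Gstp2*, a close relative of *Gstp1*, was not analysed here, and reads divided between them would make the value uncertain. *Gstm1*, a mu-class transferase, was at 148 ± 14.0 CPM in KO mice (SD, n = 5) against 174 ± 12.4 CPM in WT mice (SD, n = 4), with a log2 fold change of -0.24 (adjusted p = 0.577 in limma). In 2 of the 25 genes, *Gstm1* and *Gstt1*, which was named after its values were seen, each KO library lay below each WT library, against 3.41% of all genes without overlap in either direction.

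Other anion channel families were listed as well, namely the CLC, anoctamin, LRRC8, bestrophin and tweety families with single genes such as *Cftr* and *Pacc1*. Of 32 listed genes 26 were measured. None passed the threshold, none had an unadjusted p under 0.05 in limma and none had groups without overlap. Their log2 fold changes lay between -0.26 and 0.23 with a median of -0.02. The smallest p belonged to *Ano8*, an anoctamin, at 55.4 ± 7.29 CPM in KO mice (SD, n = 5) against 48.4 ± 5.20 CPM in WT mice (SD, n = 4) (log2 fold change 0.19, adjusted p = 0.808 in limma). *Clcn2*, a chloride channel of the plasma membrane, followed at 27.0 ± 1.91 and 24.0 ± 3.02 CPM (log2 fold change 0.17, adjusted p = 0.824 in limma).

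**Figure D5:**
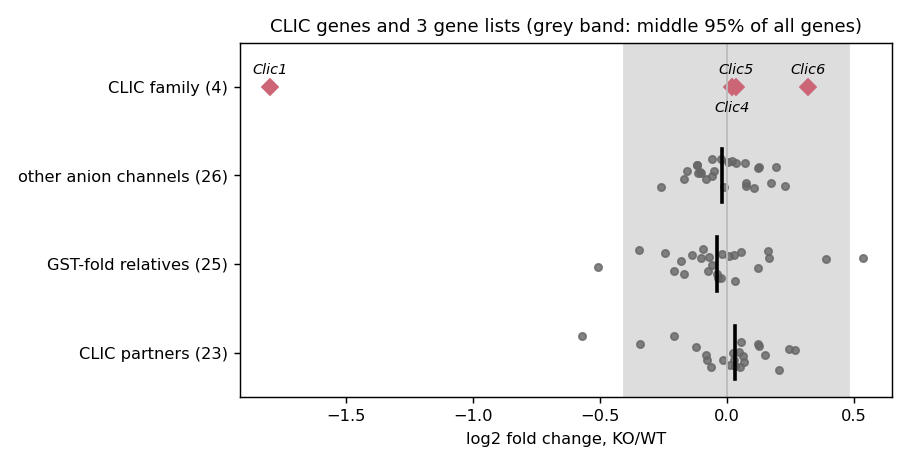
Log2 fold change of KO over WT (x axis) for the 4 CLIC genes (diamonds) and for the measured genes of 3 lists (points, with the list median as a bar). The grey band holds the middle 95% of all genes, from -0.40 to 0.48, and *Clic1* at -1.80 lies outside it, whereas *Clic4*, *Clic5* and *Clic6* lie inside.

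Genes beside *Clic1* on chromosome 17 were read because their reads could be affected by a change at the locus. *Ddah2*, which encodes an enzyme that breaks down dimethylarginines, starts 286 bases after the end of *Clic1* on the same strand. It was at 5.98 ± 2.69 CPM in KO mice (SD, n = 5) against 4.91 ± 0.852 CPM in WT mice (SD, n = 4), with a log2 fold change of 0.20 and a 95% interval of -0.36 to 0.77 (adjusted p = 0.901 in limma). The other nearest genes of the table were *Abhd16a*, a lipase gene 30514 bases further along (log2 fold change -0.07, adjusted p = 0.921), and on the other side *Vars*, the valyl-tRNA synthetase gene (0.33, 95% interval 0.08 to 0.57, adjusted p = 0.622), and *Lsm2*, of the spliceosome (-0.09, adjusted p = 0.921 in limma). Of 13 listed genes around *Clic1* 8 were measured, and none passed the threshold.

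The genes whose levels varied most like each member were sought after subtracting the mean of each genotype, over 9 libraries and among genes of at least 5 CPM. Pearson correlations picked as the highest of so many genes are large in so few libraries, so they are given as a description. For *Clic1* they were *Kif19a*, a kinesin of cilia (r = 0.952), *Ago4*, an argonaute protein (0.930), and *Zfp827* (0.928), but *Clic1* itself rested on 4 to 61 reads per library. For *Clic4* they were *Pabpc1*, which binds poly(A) tails (0.978), *Ecpas*, an adaptor of the proteasome (0.976), and *Gas2*, an actin-associated protein (0.972). These 3 were at 0.965, 0.935 and 0.942 without KO replicate 10. For *Clic5* they were *Maip1* (0.954), *Casp2*, a caspase (0.942), and *Trp53rkb* (0.926). For *Clic6* they were *Rasip1*, a protein of endothelial cells (0.947), *Gpr180* (0.932) and *Ttn*, titin (0.929).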

How the data were processed

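Per the labels and the study's methods, the authors checked reads with FastQC 0.11.8, trimmed them with Trimmomatic 0.38, aligned them to GRCm38.p6 with STAR 2.5.1a and estimated gene reads with RSEM 1.3.0 on Ensembl release 98. They removed genes without a CPM of at least 1 in at least 5 samples and applied TMM. The deposited signal is this normalized CPM, 1 column per library. 1 column matched no sample and was not used. A second deposited table gave gene symbols, and its fold changes and p-values from the authors' comparison were not used.

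The log2(CPM + 0.1) values of 14351 genes were fitted with limma 3.58.1 in R 4.3.3 (eBayes with a trend, genotype as the only term, threshold 0.05), which was tested on simulated data. Fold changes are on this scale, which understates changes of low genes. Exact permutation tests used scipy 1.17.1 on CPM. Members, lists and alternatives were chosen with earlier results of these data known. Named were the CLIC genes, in each list those past the threshold or else the 2 smallest p, the 3 genes most like each member, and the 2 nearest genes on each side of Clic1. Sequences, lengths and positions came from GENCODE M21 on GRCm38, not the authors' annotation release. No label ties libraries to separate mice, so p-values measure the spread between libraries, which may be technical. Alternatives changed the pseudocount, filter, scaling, variance model, weights, group of replicate 10, transcript length and libraries used.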

Additional observations from a re-analysis of the deposited data

Results flagged for a closer look

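Among 46 groups of 4 or 5 values tested, 3 held a library far from the others of its group, where chance gives about 1 in 20 (2.3 of 46), and none was a value of a CLIC gene. The summed level of the genes of CLIC partners reached 4738 CPM in KO replicate 10, whereas the remaining KO libraries lay at 4022 to 4120 CPM. The summed choroid plexus markers were 62.4 CPM in the same library, 47.0 CPM of it *Prlr*, against 83.8 to 92.3 CPM in the remaining KO libraries. The summed meningeal fibroblast markers were 295 CPM in WT replicate 9 and 187 to 193 CPM in the other WT libraries.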

How the results depend on the processing

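*Clic1* kept its direction under all alternatives. It was no longer past the threshold with replicate 10 in the WT group, at -1.51 (adjusted p = 0.501 in limma), and without WT replicate 1, 3 or 9 (adjusted p of 0.0893, 0.0826 and 0.0702). As each library was left out the log2 fold change lay between -1.94 and -1.62, and *Clic1* had no value with a mean of at least 5 CPM. *Clic6* kept its direction in 20 of 20 alternatives, but its 95% interval did not always exclude 0. It began at -0.030 without KO replicate 8, -0.056 without WT replicate 3 and -0.033 without WT replicate 11. With replicate 10 in the WT group it began at -0.157. The estimates near 0 changed sign: *Clic4* was -0.0080 with sample weights and -0.0566 with replicate 10 in the WT group, and lay between -0.0208 and 0.0457 as each library was left out, and *Clic5* was -0.0338 in limma-voom on estimated counts and lay between -0.0541 and 0.13. With replicate 10 in the WT group the sum of *Clic4*, *Clic5* and *Clic6* differed by -1.63 CPM and that of all 4 genes by -4.42 CPM. With replicate 10 in the KO group, summing per kb turned the difference of all 4 genes to -0.480 CPM per kb with the longest coding transcript, and it was 0.602 CPM per kb with the mean coding transcript length, chosen after the data were seen. As each library was left out the summed CPM differed by 3.14 to 10.9 for 3 genes and by -0.315 to 7.29 for all 4, lowest without KO replicate 10 and highest without KO replicate 2 in both. The count of 41 genes past the threshold in limma became 135 with sample weights, 5 with replicate 10 in the WT group and 27 among genes averaging at least 5 CPM, and ranged from 18 to 87 as each library was left out (87 without KO replicate 10). The list with the glutathione S-transferase fold had 1 call, *Gstp1*, with sample weights and 0 to 1 as libraries were left out, and the other 2 lists had none. The cause of these changes was not tested, beyond the filter removing low genes. No paired analysis was possible because the groups share no replicate numbers.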
